A study of Mus musculus with 17 samples.

Results

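Elf2, Nudt6, Mgst2, Cetn4, Fat4, Ccdc144b and D3Ertd751e are 7 genes of mouse chromosome 3, the chromosome that carries Noct, and they are 7 of the 21982 genes in the deposited count table. They were chosen by name because their levels differed between Noct knockout and wild-type brown adipose tissue in these same libraries. The genotype differences below are therefore a description of what was selected and carry no test. Tests are given for the response to cold within a genotype and for sex, which are not the contrasts that chose the genes. Each cold response shares its libraries with those contrasts, so its p-value is not independent of the choice. The difference between the cold responses of the genotypes equals the genotype difference at 6 °C minus that at 22 °C, the contrasts that chose the genes, so it is a description too.

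Brown adipose tissue, the heat-producing fat, was sequenced as mRNA from 17 mice, 1 library per mouse, and replicates are different animals. The mice are labelled C57BL/6 and were littermates of genotype Noc+/+ (wild type) or Noc-/- (knockout), housed singly without food for 4 h at 22 °C or at 6 °C. The groups were wild type at 22 °C (n = 4, 3 female and 1 male), wild type at 6 °C (n = 5, 4 female and 1 male), knockout at 22 °C (n = 4, 1 female and 3 male) and knockout at 6 °C (n = 4, 1 female and 3 male). Sex was thus unevenly spread, with 2 of 9 wild types and 6 of 8 knockouts male. Labelled ages ran from 11.14 to 23.57 with no unit, in ranges that overlapped between the groups, and the series text gives 10 to 20 weeks. Which part of Noct the knockout allele removes, and in which strain it was made, are not given in the sources used here. Sequence differences between the genotypes on chromosome 3 were not analysed here.

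As background, Noct encodes Nocturnin, a rhythmically expressed enzyme that resembles mRNA deadenylases in structure and removes a phosphate from NADP(H). The 7 genes have different known roles. Elf2 encodes an ETS-family transcription factor, Nudt6 a Nudix hydrolase whose gene lies opposite the growth factor gene Fgf2, and Mgst2 a membrane glutathione transferase that can make leukotriene C4. Cetn4 encodes a centrin, one of the small calcium-binding proteins of centrioles and basal bodies, and Fat4 a giant cadherin that binds Dachsous proteins and acts in planar cell polarity. Ccdc144b is named for a coiled-coil domain and D3Ertd751e for an expressed sequence tag. Neither is given a role here.

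The 7 genes spread over 15.7 Mb of chromosome 3 on both sides of Noct (GRCm38, GENCODE vM21). From the proximal side they are Ccdc144b (36007244 to 36053547, minus strand), Cetn4 (37307749 to 37312708, minus), Nudt6 (37404910 to 37420211, minus), Fat4 (38886940 to 39011985, plus) and D3Ertd751e (41742611 to 41803320, plus). Noct itself spans 51224447 to 51251644 on the plus strand. Elf2 (51252720 to 51340663, minus) and Mgst2 (51660360 to 51682677, plus) lie beyond it. Only 1075 bases separate the 3' end of Noct from the 3' end of Elf2, so this pair of genes converges. The strand setting of the read counting is not stated, so reads from a gene and from an opposite-strand neighbour in the same place cannot be told apart.

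The promoters of Ccdc144b, Elf2 and Mgst2 are shown because Ccdc144b lost nearly all its counts in the knockout, Elf2 was the gene whose cold response turned over, and Mgst2 lies next to Elf2 among the 7. They are RefSeq sequences (GRCm38.p6) upstream of the annotated start, 5' to 3' on the gene's strand, without bases that fall in an exon of the same gene. All 7 genes had a promoter in that set. Capitals mark matches on either strand to any of 3 promoter motifs, with overlapping matches joined. The GC box was searched as GGGCGG. The TATA box was searched as TATAAA. The CCAAT box was searched by those letters.
Ccdc144b, chr3:36053548-36053797, minus strand: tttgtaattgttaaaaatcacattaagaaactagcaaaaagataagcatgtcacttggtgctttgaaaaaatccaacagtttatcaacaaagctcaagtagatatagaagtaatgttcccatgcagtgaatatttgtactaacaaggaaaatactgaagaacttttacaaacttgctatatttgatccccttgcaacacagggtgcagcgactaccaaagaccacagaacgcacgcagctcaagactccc
Elf2, outer start, chr3:51340684-51340894, minus strand: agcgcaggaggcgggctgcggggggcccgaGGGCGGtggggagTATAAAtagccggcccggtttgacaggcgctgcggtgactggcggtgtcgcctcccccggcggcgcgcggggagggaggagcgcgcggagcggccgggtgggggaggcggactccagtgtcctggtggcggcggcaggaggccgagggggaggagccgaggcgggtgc
Elf2, inner start, chr3:51277576-51277764, minus strand: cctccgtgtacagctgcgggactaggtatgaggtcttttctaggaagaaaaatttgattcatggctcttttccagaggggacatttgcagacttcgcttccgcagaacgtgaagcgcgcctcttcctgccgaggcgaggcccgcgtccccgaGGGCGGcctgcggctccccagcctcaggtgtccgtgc
Mgst2, chr3:51660929-51661177, plus strand: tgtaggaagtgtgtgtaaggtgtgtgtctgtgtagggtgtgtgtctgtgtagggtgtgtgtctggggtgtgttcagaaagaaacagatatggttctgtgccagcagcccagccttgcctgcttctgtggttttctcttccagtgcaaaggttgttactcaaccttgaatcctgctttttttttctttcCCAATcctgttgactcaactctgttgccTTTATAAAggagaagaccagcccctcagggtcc
Elf2 has a pair of annotated start sites that lie 63.1 kb apart, so the gene-level counts below pool transcripts from both. The outer Elf2 promoter held a GC box and a TATA box, and the inner one a GC box. The Mgst2 start in RefSeq lies inside the GENCODE interval of the gene, and its upstream stretch held a CCAAT box and a pair of overlapping TATA matches. The Ccdc144b stretch held none of these. Over windows that begin 250 bases upstream of 32851 mouse start sites, GGGCGG occurred in 32.7%, TATAAA in 12.4% and CCAAT in 33.8%. These windows hold bases beyond the stretches shown, and each of the Elf2 windows held 2 GC box matches. The letters TGACG (CRE half-site, in 17.8% of promoters) occurred in the same window of Cetn4 (2 matches), Nudt6 (2) and D3Ertd751e (3). Neither CACGTG (E-box, 6.02%) nor CCGGAAG (ETS site, 6.91%) was found in the windows of the 7 genes, which says only that these letters are not in those windows.

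Library totals ran from 18410748 to 47598200 counts. Levels are given as CPM, the counts relative to library size after TMM scaling, and 12486 genes, with all 7 among them, passed the filter on low counts. The 11 brown adipocyte markers were all detected, with summed levels of 10943 to 19491 CPM over the libraries. None of the 38 tested markers of brown adipocytes, muscle, macrophages, endothelium, lymphocytes, nerve or fibroblasts was called between genotypes by edgeR, while 3 at 22 °C and 1 at 6 °C had an unadjusted p below 0.05 and DESeq2 called 1, Dio2, at 22 °C. Skeletal muscle markers varied widely within every group, from 0.541 to 866 CPM in all, and their part in the results was not tested. In bulk tissue, fewer cells of a type and less RNA per cell cannot be told apart. Noct was at 140 ± 35.6 CPM in wild types at 22 °C (SD, n = 4) and 346 ± 81.7 at 6 °C (n = 5), and at 13.2 ± 14.3 and 22.6 ± 4.46 CPM in the knockouts (n = 4 each). The highest knockout library, at 34.2 CPM, stayed below the lowest wild type, at 91.5 CPM.

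Elf2 stood out among the 7 because its response to cold ran in opposite directions in the 2 genotypes. In wild types at 22 °C its libraries held 25.2, 23.1, 24.5 and 23.6 CPM, and at 6 °C they held 30.0, 32.9, 33.3, 25.04 and 31.4 CPM. In knockouts it was at 15.7, 16.9, 16.2 and 13.4 CPM at 22 °C, and at 4.58, 4.83, 5.17 and 5.55 CPM at 6 °C. The 4 cold knockouts were the lowest libraries of all, the 4 warm knockouts came next, and every wild type lay above both. Means were 24.1 ± 0.937 (SD, n = 4) and 30.5 ± 3.34 CPM (n = 5) in wild type, against 15.6 ± 1.501 and 5.03 ± 0.421 CPM (n = 4 each) in knockout.

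Cold raised Elf2 in wild types by 0.34 ± 0.10 log2 (SE, edgeR adjusted p = 0.0177), a 1.27-fold rise in which the warm and cold libraries overlapped only through the wild-type 6 °C replicate 4. In knockouts cold lowered Elf2 3.09-fold (log2 difference -1.63 ± 0.11, edgeR adjusted p = 5.06e-07), with no overlap between the groups. Among all 12486 genes, no other gene had a smaller p-value for the cold response in knockouts. The cold knockouts behind this rank also took part in the choice of Elf2. As a description, the responses differed by -1.97 ± 0.15 log2. Elf2 was the 1 gene of 12486 (0.00801%) called for a difference between the cold responses, although 310 genes had an unadjusted p below 0.05. Nothing is read from that count, since the contrast is made of those that led to Elf2 being chosen. Under the 28 alternatives that gave a value, the difference lay between -2.04 and -0.90 log2.

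The rise of Elf2 in wild type was called in 23 of 29 alternatives. It lost its call without the wild-type 22 °C replicate 2 (adjusted p = 0.0597) and without the wild-type 6 °C replicate 2 (0.0510), both males. It also lost the call with only the female wild types and male knockouts (0.29 log2, adjusted p = 0.115). On the log2 RPKM scale the rise was 0.10 log2 with a pseudocount of 1 and 0.13 log2 with one of 0.1, and neither was called (limma adjusted p = 0.369 and 0.454). The knockout fall was called in 29 of 29 alternatives. Within males, the wild types held 23.1 CPM at 22 °C and 32.9 CPM at 6 °C, whereas the 6 knockouts ranged from 4.83 to 16.9 CPM. Among females, 7 wild types ranged from 23.6 to 33.3 CPM and 2 knockouts from 4.58 to 15.7 CPM.

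As a description of the choice, Elf2 differed between knockout and wild type by -0.66 ± 0.12 log2 at 22 °C, leaving 64.6% of the wild-type mean, and by -2.63 ± 0.12 log2 at 6 °C, leaving 16.5%. The gene next to Elf2 on its far side, Ndufc1, a subunit gene of respiratory complex I, differed by 0.22 ± 0.17 log2 at 22 °C and by -0.00 ± 0.16 log2 at 6 °C. On its near side stands Noct. A gene inside Elf2 on the plus strand, 4930577N17Rik (51276759 to 51278383), and 2 further small annotated genes inside it were not among the genes tested.

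**Figure D1:**
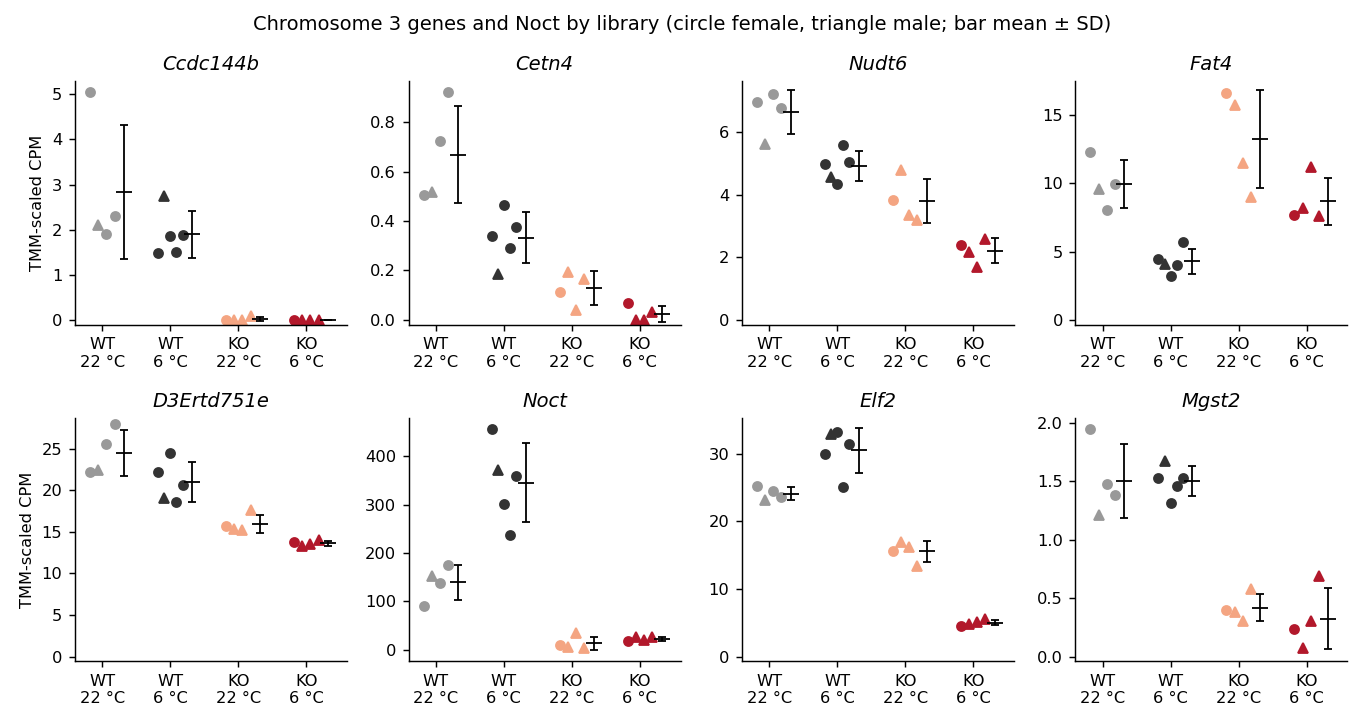
CPM (TMM-scaled, y axis) of the 7 chromosome 3 genes and of Noct in each library, by genotype and temperature (x axis). Circles are females, triangles males, and the bar beside each group is the mean ± SD; Elf2 in cold knockouts sits between 4.58 and 5.55 CPM, below every other library.

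Nudt6 fell in the cold in both genotypes and was lower in the knockout at both temperatures. Wild types held 6.97, 5.62, 7.23 and 6.77 CPM at 22 °C and 4.99, 4.59, 4.35, 5.59 and 5.06 CPM at 6 °C. Knockouts held 3.85, 4.78, 3.36 and 3.21 CPM at 22 °C and 2.41, 2.17, 1.68 and 2.59 CPM at 6 °C. Warm and cold libraries did not overlap in either genotype, and the warm knockouts reached up into the range of the cold wild types.

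In the cold Nudt6 fell by 0.44 ± 0.14 log2 in wild types (edgeR adjusted p = 0.0327) and fell by 0.78 ± 0.16 log2 in knockouts (edgeR adjusted p = 0.00273). The responses differed by -0.34 ± 0.22 log2, as a description. The fall in knockouts was called in 29 of 29 alternatives and that in wild types in 19 of 29. The wild-type call was lost in turn without 22 °C replicate 1, 3 or 4 or 6 °C replicate 1, 2, 3 or 5 (adjusted p up to 0.0984), while the log2 value stayed between -0.63 and -0.38 in all alternatives. The described genotype differences were -0.72 ± 0.17 log2 at 22 °C and -1.06 ± 0.17 log2 at 6 °C.

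Nudt6 shares 5199 bases with Fgf2 on the opposite strand, so the reads there may belong to either gene. Fgf2, which encodes a fibroblast growth factor, was at 5.02 ± 1.30 CPM in wild types and 2.60 ± 0.379 in knockouts at 22 °C (n = 4 each). At 6 °C it was at 3.02 ± 1.23 CPM in wild types (n = 5) and 1.57 ± 0.418 in knockouts (n = 4). Its genotype difference was -0.79 ± 0.28 log2 at either temperature and was not called. Its cold response was -0.73 ± 0.24 log2 in wild types, which was called, and -0.74 ± 0.27 log2 in knockouts, which was not. Spata5, which shares 316 bases with the other end of Nudt6, differed between genotypes by 0.15 ± 0.23 log2 at 22 °C and 0.08 ± 0.23 log2 at 6 °C, and cold raised it in both genotypes (0.75 ± 0.21 and 0.67 ± 0.22 log2).

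Mgst2 was low in wild type and lower in knockout, and its cold response passed the test in neither. Wild types held 1.95, 1.21, 1.48 and 1.38 CPM at 22 °C and 1.53, 1.67, 1.32, 1.46 and 1.53 CPM at 6 °C. Knockouts held 0.402, 0.385, 0.306 and 0.583 CPM at 22 °C and 0.234, 0.0773, 0.302 and 0.689 CPM at 6 °C. The highest knockout lay below the lowest wild type, and the knockout at 6 °C replicate 2 rested on 2 counts. The cold response was -0.00065 ± 0.31 log2 in wild types (edgeR adjusted p = 0.999) and -0.33 ± 0.42 log2 in knockouts (edgeR adjusted p = 0.651). The described genotype differences were -1.88 ± 0.40 log2 at 22 °C and -2.20 ± 0.41 log2 at 6 °C, leaving 27.8% and 21.7% of the wild-type means. Maml3, which lies on the opposite strand with its 3' end 3229 bases past Mgst2 and encodes a Notch coactivator, differed by -0.00 ± 0.22 and 0.16 ± 0.22 log2.

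Fat4 was the 1 gene of the 7 that was higher in the knockout. Wild types held 12.3, 9.60, 8.04 and 9.92 CPM at 22 °C and 4.48, 4.09, 3.18, 4.00 and 5.67 CPM at 6 °C. Knockouts held 16.6, 15.7, 11.5 and 9.03 CPM at 22 °C and 7.69, 8.20, 11.2 and 7.58 CPM at 6 °C. Genotypes overlapped at 22 °C and did not at 6 °C, where the lowest knockout stood above the highest wild type.

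In cold wild types Fat4 fell by 1.22 ± 0.20 log2, or 2.33-fold (edgeR adjusted p = 0.000337, called in 29 of 29 alternatives). In knockouts it fell by 0.60 ± 0.21 log2 (edgeR adjusted p = 0.0434), and there the warm and cold libraries overlapped through the 6 °C replicate 3. This call held in 12 of 29 alternatives, with adjusted p from 0.0149 to 0.276, and 12 single libraries ended it when left out: replicates 2, 3 and 4 of the warm and 1, 2 and 4 of the cold wild types, 1, 2 and 3 of the warm and 1, 2 and 4 of the cold knockouts (adjusted p 0.0504 to 0.170). The responses differed by 0.62 ± 0.28 log2, as a description. The described genotype differences were 0.46 ± 0.22 log2 at 22 °C and 1.08 ± 0.22 log2 at 6 °C. The summed level of the 4 fibroblast markers was 168 to 255 CPM in cold knockouts and 183 to 235 CPM in cold wild types. Whether fibroblast content has a part in the Fat4 values was not tested. The nearest tested genes were Ankrd50, 402095 bases proximal (-0.30 ± 0.16 and -0.17 ± 0.16 log2 between genotypes), and Intu, 1519300 bases distal (-0.14 ± 0.26 and -0.03 ± 0.26 log2).

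Cetn4 was the least abundant of the 7 in wild type and fell in the cold in wild types. Wild types held 0.507, 0.519, 0.726 and 0.920 CPM at 22 °C and 0.340, 0.186, 0.466, 0.293 and 0.376 CPM at 6 °C. Knockouts held 0.115, 0.192, 0.0382 and 0.167 CPM at 22 °C, from 15 counts in all, and 0.0668, 0, 0 and 0.0328 CPM at 6 °C, from 3 counts in all. Within each temperature every knockout lay below every wild type.

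In the cold Cetn4 fell by 1.04 ± 0.37 log2 in wild types (edgeR adjusted p = 0.0417). That call held in 16 of 28 alternatives, with adjusted p from 0.00200 (limma on log2(RPKM + 1)) to 0.135 (edgeR). It was lost when 22 °C replicate 2, 3 or 4 or 6 °C replicate 1, 2, 4 or 5 of the wild types was left out (adjusted p 0.0644 to 0.135). The knockouts, where Cetn4 rests on 15 warm and 3 cold counts, give a ratio of pooled levels only. The warm level was 4.71 times the cold level there (95% counting interval 1.33 to 25.4, exact on the counts of both groups). The described genotype difference at 22 °C was -2.05 ± 0.48 log2. At 6 °C the pooled wild-type level was 11.9 times the pooled knockout level (95% counting interval 4.07 to 57.7, exact on the 3 knockout counts). The reads carry no molecular identifiers, so such intervals cover counting error only. Bbs12, a chaperonin-like gene of cilia that shares 155 bases with Cetn4 on the opposite strand, was equally low (0.477 ± 0.175 CPM in warm wild types) and differed by 0.59 ± 0.47 log2 at 22 °C and 1.52 ± 0.50 log2 at 6 °C, with neither called.

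Ccdc144b was nearly absent from the knockouts. Wild types held 5.04, 2.10, 1.90 and 2.30 CPM at 22 °C and 1.47, 2.76, 1.86, 1.496 and 1.88 CPM at 6 °C. In knockouts 7 of 8 libraries had 0 counts, and the 22 °C replicate 4 had 2 counts (0.0833 CPM). The lowest wild-type library still rested on 26 counts. At 22 °C the pooled wild-type level was 165 times the knockout level (95% counting interval 45.8 to 1365, from 2 knockout counts). At 6 °C the knockout level was at least 70.9-fold lower, taking a floor of 3 counts over the group. In wild types the cold response was -0.59 ± 0.36 log2 (edgeR adjusted p = 0.236), and no fold is given in knockouts, where both groups lie at or under the floor. Mccc1os, annotated on the opposite strand, shares 17863 bases with Ccdc144b and was not among the genes tested, so reads there may belong to either gene. The adjoining genes Mccc1, 6565 bases away, and Acad9, 12431 bases away, both encode mitochondrial enzymes and differed between genotypes by 0.17 ± 0.10 and 0.29 ± 0.10 log2 at 22 °C and by -0.12 ± 0.10 and 0.06 ± 0.10 log2 at 6 °C.

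D3Ertd751e showed the most even difference. Wild types held 22.2, 22.4, 25.6 and 28.0 CPM at 22 °C and 22.2, 19.1, 24.5, 18.6 and 20.7 CPM at 6 °C. Knockouts held 15.7, 15.3, 15.2 and 17.6 CPM at 22 °C and 13.8, 13.3, 13.6 and 13.98 CPM at 6 °C. All 8 knockouts lay below all 9 wild types. The genotype difference was -0.58 ± 0.11 log2 at 22 °C and -0.57 ± 0.11 log2 at 6 °C, which left 65.0% of the wild-type mean at each temperature. Cold responses were -0.23 ± 0.10 log2 in wild types (edgeR adjusted p = 0.0956) and -0.22 ± 0.11 log2 in knockouts (0.148), and they differed by 0.00 ± 0.15 log2, as a description. The wild-type fall was called in 2 of 29 alternatives and the knockout fall in 0 of 29. Those 2 were on the log2 RPKM scale, with pseudocounts of 1 and 0.1 (-0.35 and -0.42 log2, limma adjusted p = 0.00281 and 0.00389). Sclt1, whose product is a component of ciliary distal appendages, starts 96 bases away on the opposite strand and differed between genotypes by -0.23 ± 0.19 and -0.32 ± 0.19 log2.

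**Figure D2:**
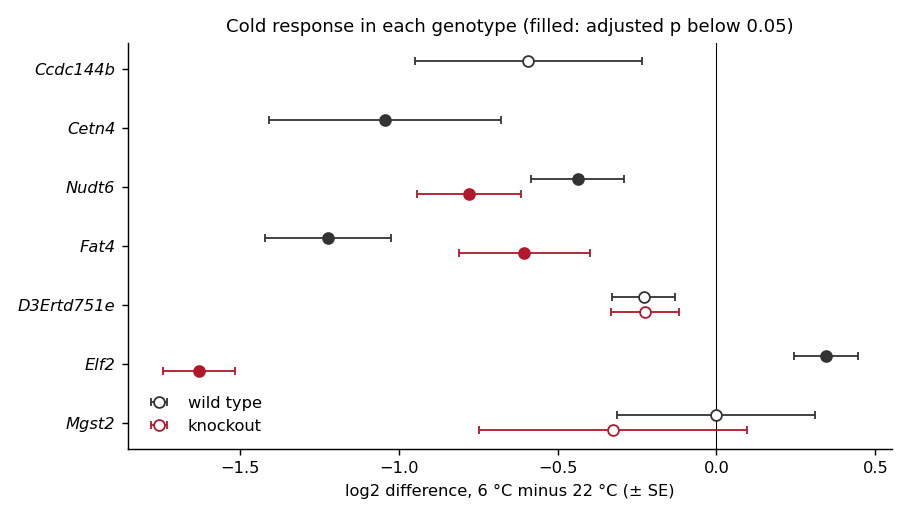
Log2 difference between 6 °C and 22 °C (x axis, ± SE) of the 7 genes in wild types (black) and knockouts (red), filled where the adjusted p is below 0.05. Elf2 is the gene with filled points on opposite sides of 0 (0.34 and -1.63); Ccdc144b and Cetn4 have no knockout point because their cold knockouts held 0 and 3 counts.

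Counted together, cold raised 1 of the 7 genes (Elf2) and lowered 3 (Nudt6, Cetn4, Fat4) in wild types. Over all tested genes cold raised 14.3% and lowered 13.3%. In knockouts cold raised none and lowered 3 (Elf2, Nudt6, Fat4), where 11.6% of all genes rose and 10.0% fell. Cetn4 was past the threshold in the knockout fit as well, which would make 4, but is not counted because it rests on the 15 and 3 counts above. The median cold response of the 7 was -0.44 log2 in wild types and -0.78 log2 in knockouts, beside -0.03 and -0.02 log2 over all genes. These cold counts and medians come from the libraries that chose the genes, so nothing further is read from them. For sex none of the 7 was called by edgeR or DESeq2 (edgeR adjusted p = 0.998 for each, and 0 with an unadjusted p below 0.05), where 8 genes or 0.0641% of all were called, 691 genes had an unadjusted p below 0.05 and DESeq2 called 43.

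In the contrasts that chose the genes, 1 of the 7 was called at 22 °C, where 0.0160% of all genes were called, and 3 were called at 6 °C, where 0.0400% were. Nothing is read from these counts. At 22 °C 6 of the 7 had all knockouts below all wild types (1.93% of all genes). At 6 °C 6 lay below (0.585%) and Fat4 lay above (0.457%). Over both temperatures 4 of the 7 separated all 8 knockouts from all 9 wild types. With Noct, Dazap2, Vipr2 and AC123954.1 they made up the 8 genes (0.0641%) that did so, and those last 3 lay above wild type in the knockouts. Among females (7 wild types, 2 knockouts) 6 of the 7 lay below wild type and 1 overlapped, where 1.29% of all genes lay below. Among males (2 wild types, 6 knockouts) 4 lay below and 3 overlapped, where 2.16% of all genes lay below. Just outside the chosen genes stood Spry1, a growth factor signalling inhibitor 219735 bases from Nudt6, with -0.41 ± 0.17 log2 at 22 °C and -0.94 ± 0.17 log2 at 6 °C. Nxnl1 of chromosome 8 was the 1 gene outside chromosome 3 called at 6 °C (1.58 ± 0.27 log2).

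The 7 genes did not form an unbroken stretch. Within 20 Mb of Noct 112 genes were tested, and none of the 104 that are neither Noct nor chosen was called by edgeR or separated all knockouts from all wild types. That follows in part from the choice, since genes that differed by genotype were taken out as the 7. At each temperature 10 of these 104 had an unadjusted p below 0.05, and DESeq2 called 1 at 6 °C, Spry1. Over all 12486 tested genes 486 at 22 °C and 393 at 6 °C had such a p, a smaller share than among the 104. The median absolute genotype difference of the 104 was 0.13 log2 at 22 °C and 0.12 log2 at 6 °C, beside 0.13 and 0.12 log2 over all genes. Between the outermost of the 7 lay 28 such genes, with a median absolute difference of 0.19 log2 at 22 °C and 0.13 log2 at 6 °C. The largest among these 28 was 1.26 log2 at 22 °C and 1.52 log2 at 6 °C. The medians do not show single genes between Ccdc144b and Cetn4, of which some are named after their values were seen. Ccna2 differed by 0.80 ± 0.28 and 1.08 ± 0.28 log2 and Anxa5 by -0.27 ± 0.12 and -0.40 ± 0.11 log2, with neither called. Exosc9, which lies between them, differed by 0.00 ± 0.16 and 0.03 ± 0.16 log2. The 4 tested genes between Elf2 and Mgst2 (Ndufc1, Naa15, Rab33b and Setd7) differed by at most 0.22 log2 at 22 °C and 0.12 log2 at 6 °C. Between D3Ertd751e and Noct only Pcdh18 (0.01 ± 0.30 log2 at 22 °C and 0.08 ± 0.32 at 6 °C) and Slc7a11 (-1.26 ± 1.52 and -0.96 ± 1.32 log2) were tested, and the SE of Slc7a11 exceeded its difference. Beyond Mgst2 60 tested genes followed within the window and proximal to Ccdc144b 16, with none called.

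**Figure D3:**
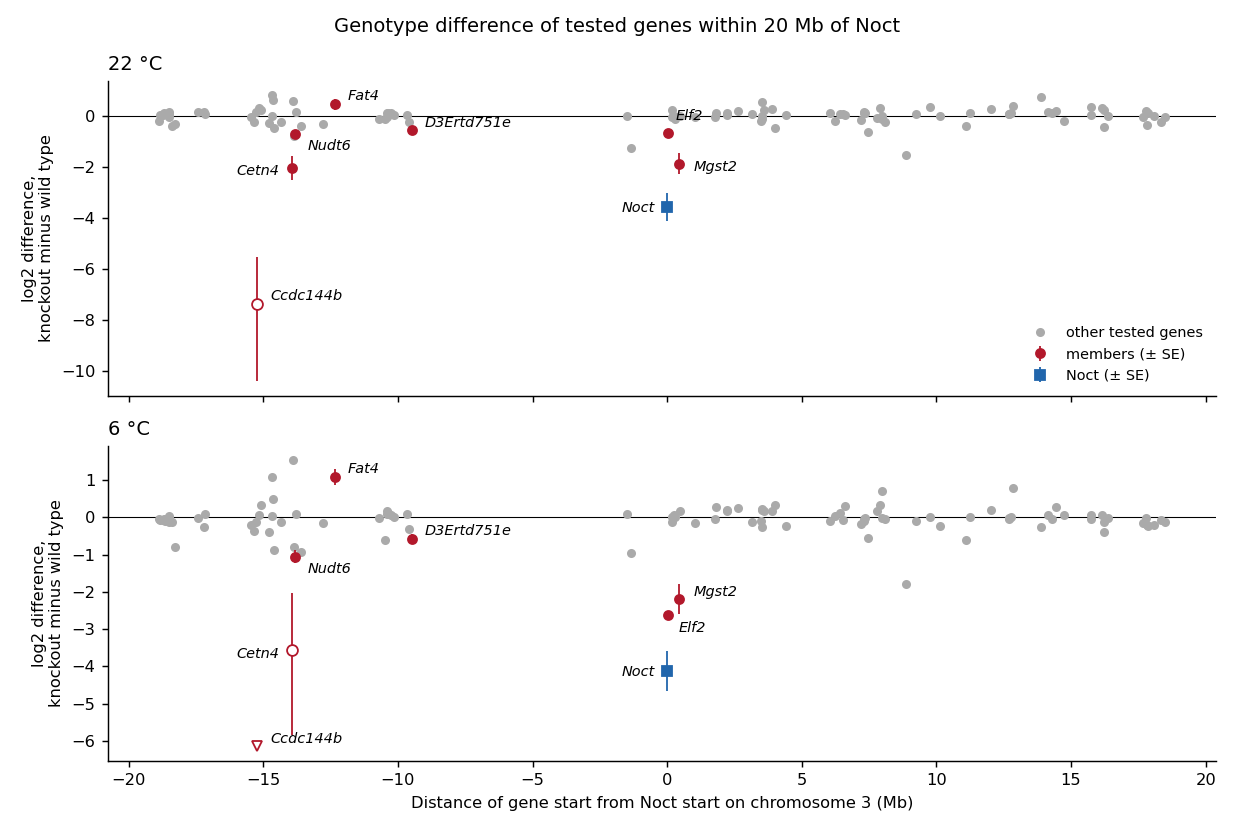
Log2 difference between knockout and wild type (y axis) at 22 °C (top) and 6 °C (bottom) of the 112 tested genes against the distance of their start from that of Noct in Mb (x axis). Red circles are the 7 genes and the blue square is Noct, both ± SE; open circles are ratios of pooled counts with their 95% counting interval and the open triangle is a bound, for Ccdc144b (2 and 0 knockout counts) and for Cetn4 at 6 °C (3 counts), and the 4 grey genes between Elf2 and Mgst2 lie within 0.22 log2 of 0.

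Levels between genes can be compared per gene length, in RPKM. In wild types at 22 °C the order was D3Ertd751e (4.72 ± 0.555 RPKM), Nudt6 (4.43 ± 0.526), Elf2 (2.82 ± 0.155), Fat4 (0.651 ± 0.127), Ccdc144b (0.472 ± 0.256), Mgst2 (0.456 ± 0.105) and Cetn4 (0.185 ± 0.0553; n = 4 each). D3Ertd751e and Nudt6 overlapped in range, as did Fat4, Ccdc144b and Mgst2 among themselves, whereas Elf2 and Cetn4 were clear of their neighbours. In cold knockouts D3Ertd751e led with 2.21 ± 0.204 RPKM, ahead of Nudt6 with 1.25 ± 0.310. Elf2 had dropped to 0.495 ± 0.0609 RPKM, a level that overlapped that of Fat4 (0.470 ± 0.0508; n = 4 each).

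Across the 17 libraries the genes most like each of the 7 in log2 CPM were mostly the others. Of the 21 places (3 for each gene), 17 went to another of the 7 and 18 to chromosome 3. Pearson's r was 0.95 between Cetn4 and D3Ertd751e, 0.93 between Nudt6 and Cetn4, and 0.91 between Ccdc144b and Mgst2 (n = 17). These values are a description, since the libraries share the genotype groups that chose the genes. Elf2 was closest to Nudt6 (0.87), Mgst2 (0.83) and Cetn4 (0.82). Fat4 went with none of the others, and its closest genes were Nudt16 of chromosome 9 (0.88), D3Ertd254e of chromosome 3 (0.88) and Nxnl1 (0.86). The remaining place was that of Rabl2 of chromosome 15 with Nudt6 (0.87).

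Relatives of the 7 genes, taken from fixed family lists, were not called between genotypes at either temperature, in 6 lists with 85 tested genes. By edgeR and by DESeq2 0 were called, and 6 at 22 °C and 5 at 6 °C had an unadjusted p below 0.05. Examples chosen by their level were Gabpa for the ETS factors (0.12 ± 0.18 log2 at 22 °C and -0.01 ± 0.18 at 6 °C), Nudt4 for the Nudix hydrolases (0.27 ± 0.31 and -0.09 ± 0.29), and Mgst1 for the enzymes of the Mgst2 family and of leukotrienes (0.01 ± 0.19 and 0.14 ± 0.19). Gstz1 stood for the glutathione transferases (-0.02 ± 0.19 and 0.16 ± 0.18), Cetn3 for the centrins and their partners (0.22 ± 0.17 and 0.22 ± 0.17), and Sav1 for the Fat4 partners and the Hippo pathway (-0.48 ± 0.19 and -0.21 ± 0.20). Median differences of the lists lay between -0.15 and 0.15 log2 at 22 °C, beside -0.00 log2 over all genes.

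For cold, 22 of the 85 relatives (25.9%) were called in wild types and 20 (23.5%) in knockouts, beside 27.6% and 21.6% of all tested genes. Of 15 tested ETS factors 2 rose and 4 fell in wild types, and 4 rose and 3 fell in knockouts. Elf4 rose in both (0.78 ± 0.20 and 0.78 ± 0.21 log2) and Ets2 fell in both (-0.87 ± 0.19 and -0.74 ± 0.20 log2), and neither was called for a difference between these responses. These 2, and the further genes of this paragraph other than Sav1, were chosen after their values were seen. Of 20 Nudix genes none rose and 6 fell in wild types, and 3 fell in knockouts. Those that fell in both were Nudt7 (-0.41 ± 0.13 and -0.43 ± 0.14 log2) and Dcp2, the catalytic subunit of mRNA decapping (-0.39 ± 0.12 and -0.41 ± 0.13 log2). No gene of the 8 in the Mgst2 and leukotriene list was called. In the list of Fat4 partners and the Hippo pathway 5 of 21 rose and 2 fell in wild types, and 6 rose and none fell in knockouts. Sav1, a scaffold of the Hippo kinases, rose by 1.94 ± 0.19 and 2.22 ± 0.19 log2, and Fat1, the large cadherin related to Fat4, fell in wild types (-0.96 ± 0.17 log2), with -0.51 ± 0.18 log2 in knockouts. Among glutathione transferases 2 of 16 fell in each genotype, and among centrins and partners 1 of 5 fell in wild types and 2 in knockouts. No gene of the 6 lists was called for a difference between the cold responses by edgeR or DESeq2, and 1 had an unadjusted p below 0.05.

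**Figure D4:**
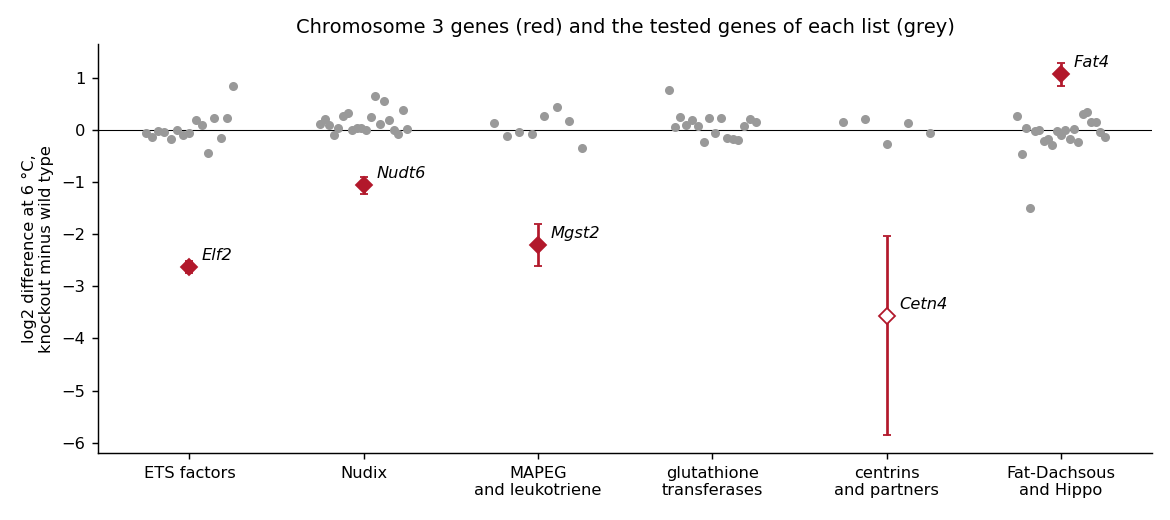
Log2 difference between knockout and wild type at 6 °C (y axis) for the tested genes of 6 lists of relatives (grey points, x axis) and for the chromosome 3 gene that goes with a list (red, none for the glutathione transferases, ± SE; open for Cetn4, a ratio of pooled counts with its 95% counting interval). None of the grey genes was called, and the red genes run from -3.57 for Cetn4 through -2.63 for Elf2 to 1.08 for Fat4.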

How the data were processed

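The authors deposited a table of read counts per gene symbol and a table of RPKM values (reads relative to gene length and to the counted reads of the library) for the 17 libraries. The submitters' processing notes name STAR, HTSeq, mm10 and GRCm38.p6, without versions, annotation or strand setting. Groups, sex and temperature came from the labels.

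The deposited counts went into edgeR 4.0.16 under R 4.3.3. The steps were filterByExpr by group (12486 of 21982 genes kept), TMM scaling, and 1 quasi-likelihood fit of all libraries with 4 group means and labelled sex (12 residual degrees of freedom). P-values were adjusted by Benjamini-Hochberg over the tested genes at a threshold of 0.05, and "called", "rose" and "fell" refer to it. An adjusted p printed without another tool's name is from edgeR. It is from this fit, or from the alternative fit named beside it. Log2 differences carry an SE worked back from the test, as the absolute log2 difference over the square root of its F statistic. Intervals on pooled counts are exact at 95%, and a group at 0 counts was set at 3 counts.

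Alternatives were DESeq2 1.42.0 (size factors, Wald test), limma 3.58.1 on log2(RPKM + 1) and log2(RPKM + 0.1), other filters and covariates, and leaving out each library. Leaving out mitochondrial genes was added after the data were seen. The procedure was tested on simulated data. Of genes changed by 2 log2 units it recovered 100% for the cold response in knockout and 99% for the difference between cold responses, and of those changed by 1 unit 70% and 46%. Only genes with a mean above 1 CPM were changed, so this recovery does not cover Cetn4. In each of these contrasts 8 unchanged genes were called falsely, and 7 were for genotype at 6 °C. The simulation changed 100 genes of each size in the cold knockouts only, with no other cold effect and no sex effect. Recovery in the real data, where 2697 genes were called for cold in knockouts, may differ and was not measured.

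The 7 genes and the lists were chosen with earlier results of these data known. The named genes were the 7, Noct, genes overlapping or next to each of them, chromosome 3 genes within 20 Mb of Noct called with an absolute log2 difference of at least 1, the relative with the highest mean CPM in a list with none called, and the 3 genes with the highest correlation to each. Positions are from GENCODE vM21, and promoter sequences from RefSeq (GRCm38.p6).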

Additional observations from a re-analysis of the deposited data

Results flagged for a closer look

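Over the 8 genes (the 7 and Noct) and 4 groups, 32 gene and group pairs were examined for a library set apart from the rest of its group by Dixon's criterion, and 3 were found, where chance flags about 1 in 20 groups. Ccdc144b stood at 5.04 CPM in the wild-type 22 °C replicate 1, while the other 3 wild types ranged from 1.90 to 2.30 CPM. Leaving libraries out one at a time moved its wild-type cold response between -0.88 and -0.11 log2. Ccdc144b also stood at 0.0833 CPM in the knockout 22 °C replicate 4, which is 2 counts, while the other 3 libraries held 0. Beside 3 libraries at 0 any count meets the criterion, so this one is not read against the chance rate. Fat4 stood at 11.2 CPM in the knockout 6 °C replicate 3, while the other 3 ranged from 7.58 to 8.20 CPM.

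The cold response of Elf2 differed between the genotypes by -1.97 ± 0.15 log2 (knockout minus wild type). This is a description with no test, since it is made of the genotype differences that chose the gene. All 4 cold knockouts lay below all 4 warm knockouts, while 4 of 5 cold wild types lay above all 4 warm wild types.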

How the results depend on the processing

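The fall of Elf2 in the cold knockouts kept its direction and call in every alternative that gave a value, and the described difference between its cold responses kept its direction. Counts of genes moved as follows. With DESeq2's Wald test 10 genes were called between genotypes at 22 °C (2 as reported) and 12 at 6 °C (5 as reported), of which 5 and 6 were among the 7 (1 and 3 as reported), and 43 for sex (8 as reported). Without a sex term 4 were called at 22 °C, and 3 and 5 of the 7 at the 2 temperatures. With sex and labelled age 3 were called at 6 °C, 14 for sex, and 2 of the 7 for cold in knockouts (4 by the reported fit, Cetn4 included). With only the compared groups fitted, edgeR called 0 at 22 °C (0 of the 7; 508 genes had an unadjusted p below 0.05). DESeq2 was not run on such subsets, and its 10 calls above are from all libraries. The edgeR fits of the compared groups called 3 at 6 °C, 1589 for cold in knockouts (2697 as reported) and 2 of the 7 among them. With only the majority sex of each genotype 1647 were called for cold in knockouts and 1 of the 7 for cold in wild types (4 as reported). With no low-count filter 2 of the 7 were called for cold in wild types. With limma on RPKM values, pseudocount 1 or 0.1, 4 were called at 22 °C and 3 of the 7 in each, 3 at 6 °C with a pseudocount of 1, and 2 of the 7 for cold in knockouts with 0.1. The RPKM scale with a pseudocount of 0.1 also moved the median of all genes to -0.21 log2 for cold in wild types and -0.13 log2 for genotype at 22 °C.

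Replicate numbers were not taken to pair the mice. Same-numbered libraries of different groups correlated between -0.447 and 0.490 in their deviations from the group means. Differently numbered libraries were not compared, so these values do not decide whether the numbers pair animals. With the replicate number as a block 1 of the 7 was called for cold in wild types, 2 for cold in knockouts, 0 genes at 22 °C (0 of the 7; 472 with an unadjusted p below 0.05), and 1 for sex. The Elf2 rise in wild type missed the threshold (adjusted p = 0.0592).

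Leaving out each library in turn gave 1 to 4 of the 7 for cold in wild types, 2 to 4 for cold in knockouts, 1 to 3 genes and 1 to 2 of the 7 at 22 °C, 3 to 5 genes and 2 to 4 of the 7 at 6 °C, and 4 to 14 genes for sex.

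Only values that had not been called changed sign. For cold in wild types Mgst2 became 0.0068 with DESeq2 size factors, 0.0078 with DESeq2, 0.0090 with the block, 0.017 with the compared groups and 0.0054 without mitochondrial genes, and ranged from -0.14 to 0.17 with libraries left out (-1.01 to 0.0093 in knockouts). The difference between cold responses became, on log2 RPKM with pseudocounts of 1 and 0.1, 0.19 and 0.51 for Ccdc144b and 0.10 and 0.37 for Cetn4, and 0.023 for Mgst2 with a pseudocount of 1. For D3Ertd751e it became -0.036 with age, -0.0084 with the block and -0.0014 with the majority sex. With libraries left out it ranged from -2.26 to 0.57 for Ccdc144b, -1.02 to 0.0062 for Mgst2 and -0.047 to 0.075 for D3Ertd751e. The 0.57 had an SE of 5838. It came without the warm knockout replicate 4, which left 0 counts in every knockout library, so no ratio is defined there. With 0 and 3 counts in the cold knockouts, no sign of this difference is read for Ccdc144b or Cetn4. The sex difference became -0.011 and -0.011 for Elf2 on log2 RPKM, -0.040 with age and -0.013 and -0.025 on log2 RPKM for Mgst2, and 0.037 for Fat4 with the block, and ranged from -0.40 to 0.77 for Ccdc144b, -0.083 to 0.26 for Mgst2 and -0.21 to 0.021 for Fat4. The cause of these changes was not tested. Depth limits Cetn4, Mgst2 and Ccdc144b, which rest on 3, 37 and 0 counts in the cold knockouts.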
